A study of Mus musculus with 2 samples.

Results

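Phase II conjugation enzymes attach a small polar group to a drug, toxin, hormone or breakdown product. In the tables of total RNA sequencing of fetal mouse liver, 63 of 43346 measured genes belonged to the 3 enzyme families examined here, out of 21474 genes annotated as protein-coding. They were taken by symbol from the annotation, without any measured value: 22 soluble glutathione S-transferases (GST, classes alpha, kappa, mu, omega, pi, theta and zeta), 20 UDP-glucuronosyltransferases (UGT, subfamilies 1A, 2A, 2B and 3A) and 21 sulfotransferases (SULT). The samples were whole livers of healthy B6NCrl embryos at 15.5 days of development, taken from both sexes and pooled, with 78 embryos in replicate 1 and 62 in replicate 2. RNA above 200 nt was prepared with the Ambion mirVana kit, and 10 ng with added spike-in RNAs went into each library. The 2 libraries are biological replicates of 1 group, and no group with a treatment, mutation or other age was part of the study.

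GSTs join glutathione to electrophiles, UGTs add glucuronic acid from UDP-glucuronate, and SULTs move a sulfate from the donor PAPS onto phenols, steroids and bile acids. The products are more soluble in water and leave the cell through export pumps of the ABC family. In the adult liver these reactions take place mainly in hepatocytes, whereas the fetal liver is also a blood-forming organ with many erythroid cells.

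Levels are in TPM, an abundance scaled by transcript length and library total, here computed on the genes without the spike-ins. The 2 libraries held 34820426 and 45117192 expected counts, of which 2.24% and 2.03% were spike-ins, and their counts differed by more than sampling noise (chi-square of 18.1 per degree of freedom over 17574 genes). The tissue label was checked on marker lists. Hepatocyte markers summed to 44654 and 34713 TPM with 9 of 9 detected, and erythroid markers to 153067 and 156188 TPM with 7 of 7 detected. Markers of other organs were not all absent. Those of gut and stomach summed to 39.2 and 39.6 TPM (2 of 8 detected), with Krt20 at 31.5 and 30.7 TPM. Those of adrenal and gonad summed to 32.1 and 26.0 TPM (3 of 6 detected), with Hsd3b1 at 28.0 and 22.5 TPM. Of kidney and lung markers, 0 of 6 and 0 of 5 were detected. The source of these transcripts was not tested. In whole tissue, fewer cells of a type and less RNA per cell cannot be told apart. No p-value is given: with 1 group, the lowest two-sided p that an exact sign test on 2 libraries can reach is 0.5. Values are the mean ± SD of the libraries (n = 2), which covers the spread between these pools only.

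The 3 families differed in level and in the share of their genes that was present. GST genes summed to 1962 TPM in replicate 1 and 1839 TPM in replicate 2 (1900.3 ± 87.2, SD, n = 2). UGT genes summed to 167 and 144 TPM (155 ± 16.2) and SULT genes to 60.8 and 50.3 TPM (55.6 ± 7.41). The order GST, UGT, SULT was the same in both libraries, and no library of one family overlapped with a library of another. GST exceeded UGT by 3.61 ± 0.08 on the log2 scale (12.3 ± 0.718-fold), and UGT exceeded SULT by 1.49 ± 0.04 (2.80 ± 0.0821-fold). From expected counts, which are not corrected for length, the gaps were 4.78 ± 0.209-fold for GST over UGT and 5.21 ± 0.237-fold for UGT over SULT, so which gap is larger depends on the scale. In TPM, GST held 89.6% and 90.4% of the TPM of all 63 genes, and the 63 together held 0.219% and 0.203% of the library TPM.

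A gene was counted as detected where neither library was below 1 TPM. By this measure 31 of 63 genes were detected (49.2%), beside 53.1% of all protein-coding genes. The families lay on both sides of that background, with 18 of 22 GST genes (81.8%), 9 of 20 UGT genes (45%) and 4 of 21 SULT genes (19.0%). Both libraries reached 10 TPM for 15 of 22 GST, 5 of 20 UGT and 1 of 21 SULT genes, beside 27.8% of protein-coding genes. The genes that reached 100 TPM in each library were Gstp1, Gstm1 and Gstm5, all GST. These are 3 of 63 members, beside 4.34% of protein-coding genes, so that share is near the background. The median gene was at 22.4 and 21.8 TPM for GST, 0.704 and 0.382 TPM for UGT, and 0.104 and 0.0619 TPM for SULT.

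**Figure D1:**
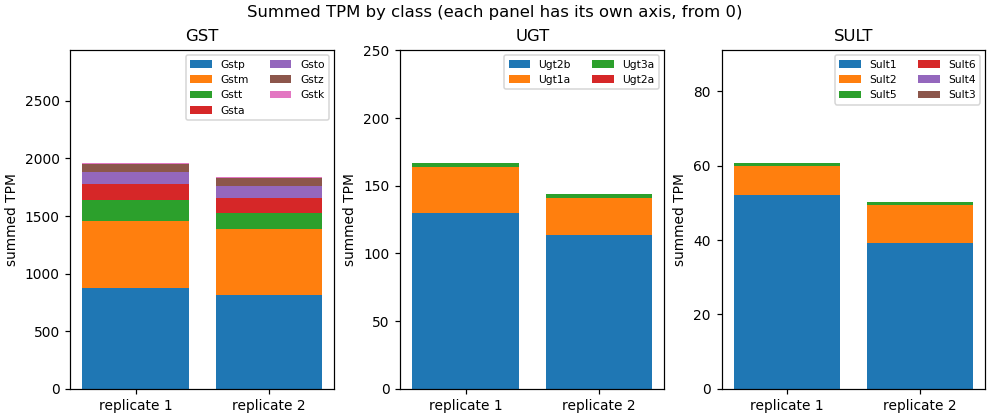
Summed TPM of GST, UGT and SULT genes in replicates 1 and 2, as bars stacked by class, with an axis of its own from 0 for each family. The bars reach 1962 and 1839 TPM for GST, 167 and 144 TPM for UGT, and 60.8 and 50.3 TPM for SULT.

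Among the GSTs the pi class was highest, at 878 and 816 TPM over 3 genes (847 ± 43.6), followed by the mu class at 579 and 569 TPM over 7 genes (574 ± 7.40). Pi and mu enzymes handle a broad range of electrophiles. The theta class summed to 180.4 and 142 TPM, the alpha class to 143 and 128 TPM, and the omega class to 98.2 and 105 TPM. The zeta class (Gstz1 alone) and the kappa class (Gstk1 alone) were lower.

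Gstp1, the main pi-class enzyme, on chromosome 19 (chr19:4035407-4037985, GRCm38, minus strand), was at 787 TPM in replicate 1 and 743 TPM in replicate 2 (765 ± 31.2). It ranked 78 among 21474 protein-coding genes and held 40.1% and 40.4% of the GST sum. Its neighbour Gstp3 was at 84.2 and 67.7 TPM, and Gstp2, which lies between them, at 6.99 and 5.98 TPM. Gstp1 exceeded Gstp3 by 10.2 ± 1.15-fold and Gstp2 by 118 ± 8.30-fold. The transcripts of Gstp1 and Gstp2 are 90.4% identical, and 52.8% of the 100-nt windows of Gstp1 also occur in Gstp2, so the division of reads between them is uncertain. The posterior SD of the Gstp2 count was 8.72% and 9.10% of the count, against 0.0874% and 0.0841% for Gstp1.

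The promoters of this pair are shown because the pair differs so widely in level while the sequences around the RefSeq start sites are alike (76.6% identity, against 51.2% for Gstp1 and Gstp3). Both are from RefSeq on GRCm38.p6, minus strand, from 250 bases before to 50 bases after the RefSeq start. In GENCODE M21 the Gstp2 gene extends upstream to chr19:4046023, so its window is not the one before that annotated start. Capitals mark the match to TGANTCAGC, a Maf-type element, which begins 74 bases before the start in Gstp1 (chr19:4037863-4038162) and 89 bases before it in Gstp2 (chr19:4042172-4042471).
Gstp1: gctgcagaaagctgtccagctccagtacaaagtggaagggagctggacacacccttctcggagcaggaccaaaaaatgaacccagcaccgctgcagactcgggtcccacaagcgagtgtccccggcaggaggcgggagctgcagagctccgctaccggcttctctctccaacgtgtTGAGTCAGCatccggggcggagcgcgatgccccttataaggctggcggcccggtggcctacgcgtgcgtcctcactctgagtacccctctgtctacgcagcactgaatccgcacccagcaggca
Gstp2: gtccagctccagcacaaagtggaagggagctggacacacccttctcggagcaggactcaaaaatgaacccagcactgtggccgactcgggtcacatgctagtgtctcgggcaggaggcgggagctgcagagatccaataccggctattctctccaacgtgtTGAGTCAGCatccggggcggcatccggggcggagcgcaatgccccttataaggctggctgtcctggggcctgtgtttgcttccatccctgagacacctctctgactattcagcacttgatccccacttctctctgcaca
The motif was found in 2 of 66 promoters of the members (3.03%) and in 1.19% of all 32851 promoters. Some of its forms also match the antioxidant response element core searched below, but the letters in Gstp1 and Gstp2 do not. The high-level gene and the low-level gene carry the same 9 letters.

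Gstm1, a mu-class enzyme prominent in liver (chr3:108012255-108017973, minus strand), was at 344 and 329 TPM (336 ± 10.6) and ranked 250 among protein-coding genes. Gstp1 exceeded it by 2.27 ± 0.0210-fold, with no overlap of libraries. Gstm5 followed at 146 and 160.3 TPM. The other 5 mu genes were lower, from Gstm7 at 35.7 and 26.6 TPM down to Gstm2 at 6.56 and 5.82 TPM. Gstm4 was at 17.6 and 17.1 TPM, Gstm6 at 15.9 and 16.0 TPM, and Gstm3 at 13.9 and 14.3 TPM. These neighbours in the order lie close together, and all 7 genes sit in one stretch of chromosome 3.

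Gstt1, a theta-class enzyme that acts on small halogenated compounds (chr10:75783813-75798584, minus strand), was at 139.5 TPM in replicate 1 and 99.7 TPM in replicate 2 (120 ± 28.1). It exceeded Gstt2, at 27.1 and 27.9 TPM, by 4.36 ± 1.11-fold, and Gstt3, at 13.8 and 14.2 TPM, by 8.58 ± 2.21-fold. Gstt4 held 0 counts in either library, a count that leaves room for up to 0.113 and 0.0838 TPM.

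Gsta3, an alpha-class enzyme known in the mouse for inactivating the epoxide of aflatoxin (chr1:21240589-21265661, plus strand), was at 106 and 93.4 TPM. Gsta4, which conjugates products of lipid peroxidation, was at 36.3 and 34.3 TPM, and Gsta3 exceeded it by 2.82 ± 0.133-fold. The 2 other alpha genes, which are 96.7% identical to each other, were below the detection limit: Gsta2 at 0.466 and 0.196 TPM, and Gsta1 at 0.218 and 0.248 TPM. Gsto1, an omega-class enzyme with dehydroascorbate reductase activity (chr19:47854970-47864790, plus strand), was at 98.0 and 105 TPM. Its neighbour Gsto2 was at 0.176 and 0.114 TPM, from 7 and 6 counts. Gstz1, the maleylacetoacetate isomerase of tyrosine breakdown (chr12:87147165-87164723, plus strand), was at 77.3 and 71.2 TPM. Gstk1, the kappa-class enzyme of mitochondria and peroxisomes, was at 6.26 and 7.50 TPM.

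**Figure D2:**
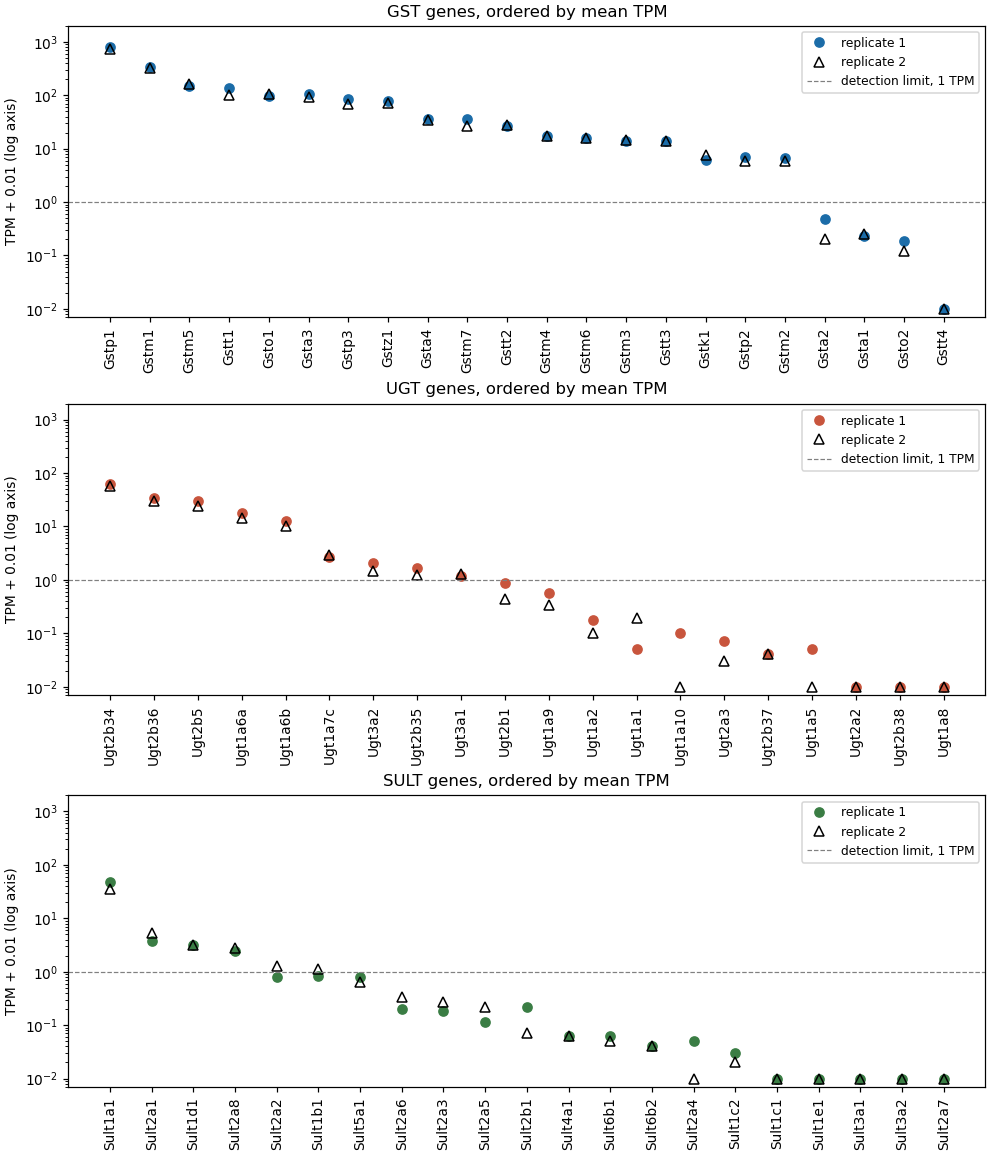
TPM of all 63 genes in replicates 1 (filled) and 2 (open) on a log axis, by family, with 0.01 added so that genes at 0 can be drawn, and the limit of 1 TPM dashed. Gstp1 leads at 787 and 743 TPM and 9 genes sit at 0 in both libraries.

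UGT transcripts came mostly from the 2B subfamily, which conjugates steroids and bile acids. The 7 Ugt2b genes summed to 129.8 and 113 TPM (122 ± 11.6), and the 9 Ugt1a genes to 33.9 and 27.8 TPM (30.8 ± 4.31). The Ugt3a genes summed to 3.19 and 2.79 TPM. The 2 measured Ugt2a genes reached 0.0621 and 0.0206 TPM in sum, all of it Ugt2a3.

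Ugt2b34 (chr5:86889767-86906937, minus strand) was highest at 62.1 and 57.8 TPM (59.9 ± 3.02), ranked 1624 among protein-coding genes and held 37.2% and 40.1% of the UGT sum. Ugt2b36 was at 34.6 and 29.9 TPM and Ugt2b5 at 30.6 and 24.1 TPM. Ugt2b34 exceeded Ugt2b36 by 1.86 ± 0.0977-fold, whereas the libraries of Ugt2b36 and Ugt2b5 overlapped. The remaining genes of this chromosome 5 cluster were far lower. Ugt2b35 was at 1.69 and 1.21 TPM, Ugt2b1 at 0.860 and 0.434 TPM, and Ugt2b37 at 0.0311 and 0.0310 TPM. Ugt2b38 had 0 counts in both libraries, with a posterior SD of 0.74 and 0.65 counts. Its transcript is 93.9% identical to that of Ugt2b5, and 75.8% of its 100-nt windows are unique.

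Ugt1a6a, an enzyme for small phenols, was at 17.7 and 14.2 TPM and Ugt1a6b at 12.6 and 10.0 TPM. Ugt1a7c followed at 2.70 and 2.93 TPM. Ugt1a6a exceeded Ugt1a6b by 1.41 ± 0.00424-fold, in almost the same ratio in both libraries. Their transcripts are 97.8% identical, and the posterior SD of their counts was 3.34% and 3.19% of the count for Ugt1a6a, and 4.19% and 3.99% for Ugt1a6b. Both genes begin with an exon of their own and share their later exons with the other Ugt1a genes, as all genes of this locus on chromosome 1 do.

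Ugt1a1, which glucuronidates bilirubin (chr1:88211959-88218997, plus strand), was at 0.0414 and 0.186 TPM. These levels rest on 2.62 and 16.2 expected counts with a posterior SD of 3.11 and 5.44. The other Ugt1a genes were low too: Ugt1a9 at 0.549 and 0.330 TPM, Ugt1a2 at 0.166 and 0.0929 TPM, and Ugt1a10 and Ugt1a5 with counts in replicate 1 alone. The 1.78 expected counts of Ugt1a10 and the 2.69 of Ugt1a5 had a posterior SD of 3.14 and 2.99. Ugt1a8 had 0 expected counts, with a posterior SD of 2.10 and 2.19 counts, and 41.8% of its 100-nt windows are unique. Counting error alone leaves room for up to 0.0453 and 0.0336 TPM, which does not cover shared reads assigned to other Ugt1a genes.

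The start regions of the highest gene of this locus and of the bilirubin enzyme are shown since both carry the same letters at nearly the same place. Both are RefSeq promoters of GRCm38.p6, plus strand, cut like those above. Capitals mark a match on the reverse strand to GTTAAT, part of the site of the liver factor HNF1, which reads ATTAAC here, 50 bases before the start in Ugt1a6a (chr1:88134559-88134858) and 41 bases before it in Ugt1a1 (chr1:88211709-88212008).
Ugt1a6a: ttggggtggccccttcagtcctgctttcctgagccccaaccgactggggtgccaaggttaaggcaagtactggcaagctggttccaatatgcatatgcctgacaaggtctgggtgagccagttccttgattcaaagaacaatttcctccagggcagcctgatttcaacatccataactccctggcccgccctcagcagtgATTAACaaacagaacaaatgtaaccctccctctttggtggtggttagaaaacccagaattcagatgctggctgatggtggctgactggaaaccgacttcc
Ugt1a1: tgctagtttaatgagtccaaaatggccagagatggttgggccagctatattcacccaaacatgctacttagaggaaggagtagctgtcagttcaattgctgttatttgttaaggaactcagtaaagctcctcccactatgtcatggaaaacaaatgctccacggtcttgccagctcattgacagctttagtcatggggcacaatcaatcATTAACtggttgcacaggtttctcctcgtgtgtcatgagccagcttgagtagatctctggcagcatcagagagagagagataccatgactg
The promoters are 49.1% identical in alignment. GTTAAT was found in 14 of 66 promoters of the members (21.2%), and in 7.1% of all promoters of this length. The 14 genes range from Gsta3 and Sult1a1 among the detected to Ugt1a1 and Sult2a4 among the undetected.

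Ugt3a2 was at 2.04 and 1.49 TPM and Ugt3a1 at 1.15 and 1.30 TPM. Enzymes of the 3A subfamily use sugar donors other than UDP-glucuronate. Ugt2a2 had 0 counts in both libraries. It shares 68.0% of its 100-nt windows with Ugt2a1, which has no gene row of its own. The transcript Ugt2a1-201 was measured within the Ugt2a2 gene and had 0 counts in both libraries too.

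The 6 Sult1 genes summed to 52.2 and 39.2 TPM and the 9 Sult2 genes, enzymes of steroids, to 7.64 and 10.4 TPM. SULT transcripts were concentrated in Sult1a1, which sulfates phenols (chr7:126672865-126676432, minus strand). It was at 48.2 TPM in replicate 1 and 35.0 TPM in replicate 2 (41.6 ± 9.37), ranked 2231 among protein-coding genes, and made up 79.3% and 69.5% of the SULT sum. The 3 other detected genes were Sult2a1, an enzyme for steroids and bile acids, at 3.71 and 5.38 TPM, Sult1d1, which acts on catecholamines, at 3.14 and 3.12 TPM, and Sult2a8, a liver enzyme for bile acids, at 2.44 and 2.83 TPM. Sult1a1 exceeded Sult2a1 by 9.75 ± 4.60-fold, 13.0-fold in replicate 1 and 6.50-fold in replicate 2, and Sult1d1 by 13.3 ± 2.93-fold.

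Just under the limit were Sult2a2, at 0.777 and 1.29 TPM, Sult1b1, a sulfotransferase of thyroid hormones, at 0.839 and 1.11 TPM, and Sult5a1 at 0.787 and 0.619 TPM. Sult2a2 and Sult1b1 passed it in replicate 2 and not in replicate 1. Sult2b1, which sulfates cholesterol in skin, was at 0.207 and 0.0619 TPM, and the brain enzyme Sult4a1 at 0.0518 and 0.0516 TPM. Among the other Sult2a genes, Sult2a6 was at 0.186 and 0.330 TPM, Sult2a3 at 0.176 and 0.258 TPM, Sult2a5 at 0.104 and 0.206 TPM, and Sult2a4 had 1 count in replicate 1 alone. Sult6b1 and Sult6b2 had from 1 to 3 counts, and Sult1c2 had 1 count in each library. Sult1e1, the estrogen sulfotransferase, Sult1c1, Sult2a7, Sult3a1 and Sult3a2 had 0 counts in both libraries, with limits between 0.0490 and 0.123 TPM.

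**Figure D3:**
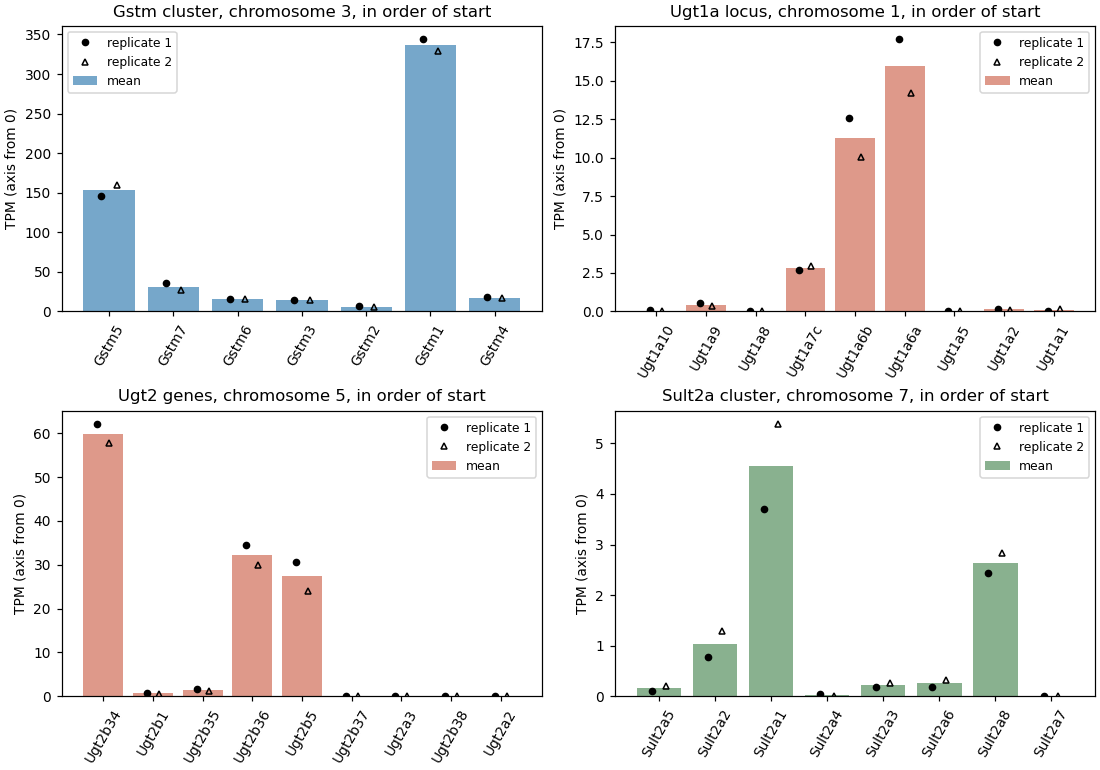
TPM of the Gstm, Ugt1a, Ugt2 and Sult2a genes in the order of their starts on the chromosome, with bars for the mean, points for the libraries and a linear axis from 0. Neighbours differ widely in level, such as Gstm1 at 336 TPM beside Gstm2 at 6.19 TPM.

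Of the 32 genes below the detection limit, 9 had 0 counts in both libraries and 23 had counts, 3 of them in 1 library only. The 9 of 63 stand beside 20.5% of protein-coding genes with 0 counts in both libraries. They were 1 GST, 3 UGT and 5 SULT genes. At this depth these genes were not detectable, which does not show that they are absent.

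How far a gene's level can be told from its relatives depends on the sequence it shares with them. Windows of 100 nt were pooled over all measured transcripts that the later annotation (GENCODE M21) assigns to a gene. Of the 63 genes, 32 had only unique windows and 13 had fewer than 50% unique. Of these 13, 10 were UGT, 3 were GST and none was SULT. The median was 99.8% for GST, 62.5% for UGT and 100% for SULT. All 9 Ugt1a genes were under 50%, with 22.6% for Ugt1a1 and 49.6% for Ugt1a6a. Among detected genes, Gstp2 was at 36.5% and Gstp1 at 47.2%. 

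**Figure D4:**
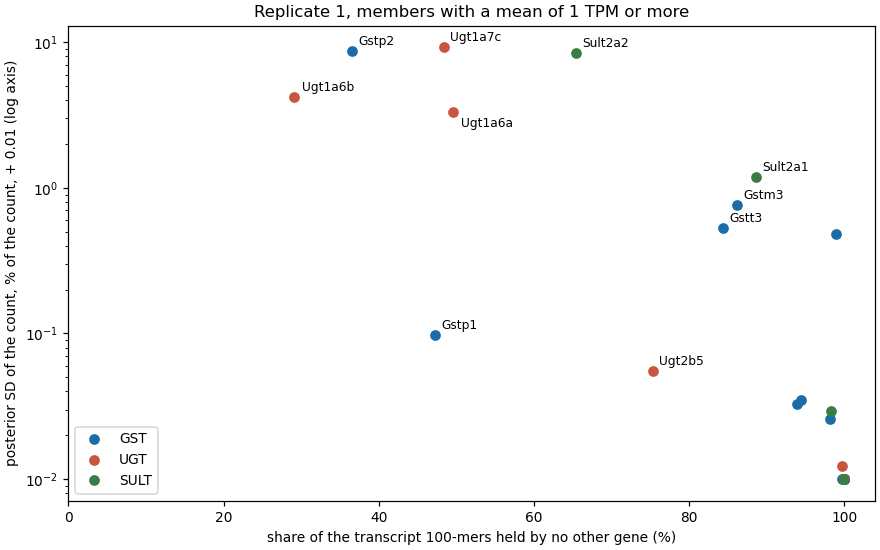
Posterior SD of the expected count as a percent of the count, plus 0.01 on a log axis, in replicate 1, against the percent of unique 100-nt windows, for genes with a mean of 1 TPM or more. Gstp2, Sult2a2 and the 3 Ugt1a genes lie between 3.34% and 9.24%, while Gstp1, with 47.2% unique, lies at 0.0874%.

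Of the 31 detected genes, 21 had 2 or more annotated transcripts, and in all 21 the libraries had 1 leading transcript by TPM in common. The leader held over 90% of the gene in both libraries in 14 of these 21. Every leader was annotated as protein-coding. Gstm1-201 held 97.6% of Gstm1 and Ugt2b34-201 held 99.7% of Ugt2b34. Others were split: Gsta3-201 held 59.7 ± 0.316% and Gsta3-202 36.1%, Gstp3-202 held 55.2% and Gstp3-201 44.8%, and Gstm4-203 held 55.6 ± 5.53% and Gstm4-201 43.8%. The leads in Gstp3 and Gstm4 are not well separated: in replicate 1, Gstp3-202 had 926 and Gstp3-201 645 expected counts with a posterior SD of 179 each, and Gstm4-203 had 386 against 416 for Gstm4-201, with a posterior SD of 48.5 and 48.8. For Ugt1a6a the shares varied more, with 69.2 ± 8.94% for Ugt1a6a-202 and 20.7 ± 11.0% for Ugt1a6a-201. Ugt1a6a-201 had 340 and 167 expected counts with a posterior SD of 102 and 110, so the split of reads is uncertain here too.

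Replicate 2 was set against replicate 1 as the log2 ratio of TPM + 1, over genes at 5 TPM or more in either library. Of the 25 members that qualified (18 GST, 5 UGT and 2 SULT), 0 differed by more than 2-fold, beside 0.672% of the 8781 genes compared. The ratios ran from -0.48 for Gstt1 to 0.44 for Sult2a1. Of all genes compared, 60.8% were lower in replicate 2 and the median was -0.04. The 5 UGT genes were all lower, with a median of -0.30, and 11 of 18 GST genes were lower, a share near that background, with a median of -0.07. TMM and median-of-ratios scaling moved the whole set, with 45.3% and 44.6% of all genes and 9 of 18 GST genes lower. Against the median of all genes under the same scaling, 10 of 18 GST and 5 of 5 UGT genes were lower under TPM, TMM and median-of-ratios scaling.

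The exact 95% interval of the ratio of counts, scaled by library totals, which covers counting error only, lay wholly below 1 for 10 of the 25 genes, where 24.4% of all genes compared did so, and wholly above 1 for 4, where 25.2% did so. The 10 were 5 GST, 4 UGT and 1 SULT genes. For Gstt1 the ratio of TPM was 0.715 and the interval of the count ratio 0.705 to 0.770, and for Sult1a1 it was 0.725 with 0.698 to 0.798. Ugt2b5 had 0.786 with 0.763 to 0.873, and Sult2a1, on the other side, 1.45 with 1.19 to 1.93. Hepatocyte markers were lower in replicate 2 as well, 9 of 9 with a median of -0.32 on the log2 scale. Of the macrophage markers at 5 TPM or more, 4 of 6 were lower (median -0.26), with a summed level of 307 and 261 TPM. Of the erythroid markers 5 of 7 were lower (median -0.10), although their sum was higher in replicate 2. Of the stellate and mesenchymal markers at 5 TPM or more, 3 of 4 were lower (median -0.02). Since 60.8% of all genes compared were lower, the counts for macrophage, erythroid and stellate markers are near the background. Summed markers of exocrine pancreas were at 15.5 and 2.44 TPM, with Pnlip at 0, and those of bile duct at 26.7 and 13.4 TPM. In each list only 1 gene reached 5 TPM: Cpa1 (7.85 and 1.61 TPM) and Spp1 (17.3 and 6.74 TPM). The other pancreas markers with counts were lower in replicate 2 too. Cel was at 4.71 and 0.413 TPM, Prss2 at 1.04 and 0.196, and Cela3b at 0.932 and 0.175. Cpb1 was at 0.559 and 0.0413 TPM and Ptf1a at 0.456 and 0. The other bile duct markers were Krt19 (3.94 and 3.32 TPM), Epcam (2.74 and 1.03), Krt7 (1.60 and 1.57) and Sox9 (1.08 and 0.774). The part of these markers in the differences between the libraries was not tested.

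**Figure D5:**
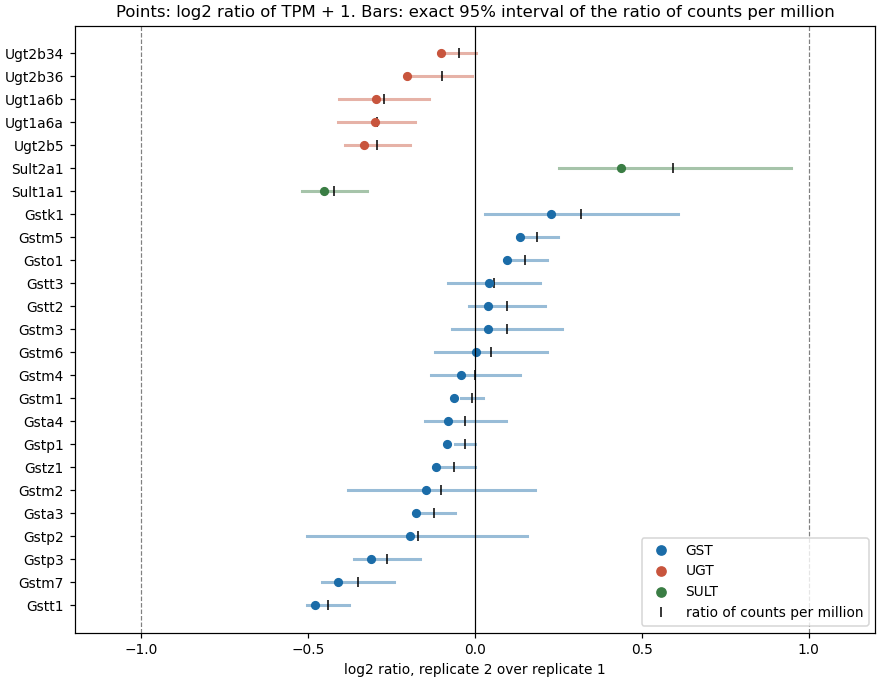
Log2 ratio of replicate 2 to replicate 1 for the 25 genes at 5 TPM or more, as points from TPM + 1, with the exact 95% interval of the scaled count ratio as bars and that ratio as a tick. Dashed lines mark 2-fold, which no gene passes.

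Genes that serve the same pathway were taken from lists that hold none of the members. The detected shares of these lists stand beside 53.1% of all protein-coding genes. For glutathione supply and turnover, 8 of 10 genes were detected, and the list summed to 490 and 468 TPM (479 ± 15.3). Gclm, the regulatory subunit of the enzyme that starts glutathione synthesis, was at 289 TPM in both libraries, while Gclc, its catalytic subunit, averaged 24.4 TPM. Glutathione transferases of the membrane and other kinds were at 817 ± 7.18 TPM in sum, with 6 of 8 detected, led by Mgst1 at 385 ± 16.0 TPM and Mgst3 at 369 ± 7.57 TPM.

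For UDP-glucuronate supply 4 of 4 genes were detected (80.0 ± 5.70 TPM in sum), led by Ugp2 at 48.3 TPM and Ugdh, which makes UDP-glucuronate, at 20.4 TPM. For sulfate donor supply 8 of 8 were detected (89.4 ± 6.15 TPM). These include the PAPS synthases Papss1 at 7.49 TPM and Papss2 at 5.36 TPM. Both supply lists were detected in full, beside 45% of UGT and 19.0% of SULT genes. A short list chosen with earlier results known and a whole gene family are unlike sets, so these shares cannot be compared.

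Among export pumps 7 of 7 were detected, led by Abcg2 at 167 ± 3.52 TPM, and among regulators of conjugation genes 12 of 12, led by Nfe2l2 at 36.0 TPM and Keap1 at 26.8 TPM, a factor and its inhibitor. Nr1i3, the xenobiotic receptor CAR, was lowest of these at 1.18 TPM. Of a list of other conjugating and detoxifying enzymes, which includes quinone reductases and an epoxide hydrolase, 7 of 12 were detected. For enzymes that reverse conjugation, Gusb, which splits glucuronides, was at 30.2 TPM. Each of these 8 lists had from 2 to 8 genes at 5 TPM or more in either library. Of these, 0 differed by more than 2-fold between the libraries. This is near the background, as 0.672% of all 8781 genes compared did so.

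Other short motifs were searched on both strands of the 66 RefSeq promoters, which cover 55 of the 63 genes. The antioxidant response element core TGACNNNGC was found in 3 promoters (4.55%, against 12.4% of all promoters), those of Gsta3, Gstm5 and Gstm7. The xenobiotic response element core GCGTG was found in 13 (19.7%, against 32.4%), and TATAAA in 14 (21.2%, against 13.6%). A match describes the letters in the window and a missing match says nothing of the factor.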

How the data were processed

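The authors' deposited expected counts are estimates per gene and per transcript, spike-ins included, and the deposited TPM is normalised by the authors for length and library total. The percent of a gene held by each transcript was computed from transcript TPM without the spike-ins, and the deposited percent (IsoPct) was not used. Per the deposited companion descriptions, the tables were made on mm10 with annotation M4 from transcriptome alignments; the aligner and the quantifier were not given in the labels or file headers used here. Deposited effective length and the posterior SD of counts (other values) were used as given.

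The 97 spike-ins and 26248 entries with a numeric identifier were left out, and TPM was rescaled to a sum of 1000000. GENCODE M21 (GRCm38), later than M4, named 42462 of 43346 genes. The members and lists were chosen with earlier results of these data known. Genes named were the 6 highest per family, the lowest with counts in both libraries, the largest library difference and all at 10 TPM or more in both; others are given by count or to place a gene beside its neighbours. A count of 0 was taken to allow 3 counts. Members were compared with a pseudocount of 1 TPM, and intervals are exact (Clopper-Pearson, 95%). Intervals and limits cover counting error only, since PCR reads without molecular identifiers are not independent molecules. Expected counts were rounded for the chi-square test and for scaling. Transcript identity is from global alignment of the transcripts with the longest coding sequence; it replaced a planned protein comparison. The interval and fold rule was tested on simulated data with Poisson counts, which lack the extra spread between these libraries. That test therefore cannot show how the rule performs on these data. Alternatives were other detection limits, pseudocounts and filters, posterior mean TPM, counts without length correction, TMM (edgeR 4.0.16), median-of-ratios (DESeq2 1.42.0), totals with spike-ins or without adult globins, and each library alone. Biopython 1.88 did the alignments, R 4.3.3 the scaling, and Python 3.11.15 with SciPy 1.17.1, pandas 2.3.3, NumPy 2.4.6 and matplotlib 3.10.9 the rest. The 4 Sult2a pseudogenes, with 1 count in all, are not members.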

Additional observations from a re-analysis of the deposited data

How the results depend on the processing

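With detection at 5 TPM, 5 UGT and 1 SULT genes passed, and at 0.5 TPM 7 SULT genes passed. From expected counts per 1000000 counts, without correction for length, the sums were 1603 for GST, 336 for UGT and 64.6 for SULT. With adult globins left out of the total, the sums were 3088.6, 253 and 90.2 TPM. The order of the families was the same under both, but from counts GST over UGT was 4.78-fold and UGT over SULT 5.21-fold, against 12.3-fold and 2.80-fold in TPM. With a pseudocount of 0.1 and no filter, an alternative chosen after seeing the data, 1 member passed 2-fold between the libraries: Ugt1a1, with a log2 ratio of 1.01 on 2.62 and 16.2 counts. In single libraries, detected genes ranged from 18 to 18 for GST, from 9 to 9 for UGT and from 4 to 6 for SULT, and the sums from 1839 to 1962, from 144 to 167 and from 50.3 to 60.8 TPM. Of 30 named levels, 23 moved by less than 1 SD with posterior mean TPM and 7 by more. Of 22 log2 ratios between the libraries, 8 moved by more than their spread under TMM and 9 under median-of-ratios scaling. Gstm1 went from -0.06 to 0.01 under both. The median over all genes moved from -0.04 to 0.02 with either scaling, and the count of members below it was added after the data were seen. Depth limits the levels of genes with few counts, and shared sequence those of the Ugt1a genes. No paired analysis was possible because there is 1 group, so no 2 groups share replicate numbers.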
